A study of Mus musculus with 6 samples.

Results

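The AP-1 and C/EBP transcription factor genes of heart muscle cells are described here across an Acly knockdown. They are 9 genes, Jund, Junb, Jun, Fos, Fosb, Cebpb, Cebpd, Atf3 and Egr1, out of 46078 gene features counted. To them were added the 5 features of the mm10 annotation whose exons overlap theirs on the other strand, Gm11175, Prdx2, Junos, Tmem189 and Spidr. The genes were chosen by their values in this same comparison, in earlier results in which Jund and Cebpb were low after the knockdown. Their differences between the groups are therefore given as a description. Where it is said that they passed the threshold of the fit over all genes, the choice of genes favoured this, and it is no independent evidence of a change.

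The cells were cardiomyocytes of mouse heart, isolated by ex vivo perfusion. In the Acly_KD group (labelled Acly-KD, 3 libraries) Acly, the gene of ATP citrate lyase, was knocked down in MyH6-Cas9 mice, named for the heart muscle myosin gene Myh6. The control group (3 libraries) is labelled wildtype, and the labels do not say whether it carries Cas9. Age, sex and the guide are not given in the sources used here. Nothing says that the libraries came from separate animals. Control 1 differed from control 2 and control 3 in reads opposite to Xist, an RNA of female cells (0 against 149 and 137). Among the Acly_KD libraries, and between control 2 and control 3, the spread may be technical.

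Jun, JunB, JunD, Fos and FosB are basic leucine zipper proteins that pair to form AP-1, which binds DNA and switches genes on or off after growth signals and stress. C/EBP beta and C/EBP delta belong to a sister family of zipper proteins, ATF3 is a zipper protein induced by stress, and EGR1 is a zinc finger factor outside both families that the same signals induce. Many of these genes are immediate early genes, with a brief burst of transcription and short-lived mRNA, and they also respond when tissue is taken apart into single cells. In mouse hearts JunD is known to restrain growth of the muscle cells, and C/EBP beta is known to fall with exercise.

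The libraries held 271463 to 814765 reads counted in features, which was 2.81% to 3.07% of the uniquely aligned reads. Features with exons opposite to another gene were a minority but held 91.9% of the nuclear counts, as when reads are counted on the strand across from their transcript. Acly itself had 0 reads in all 3 Acly_KD libraries and 1, 5 and 6 reads in control 1 to 3, too few to measure its mRNA. Reads opposite to Xist, an RNA of female cells, numbered 0 in all 3 Acly_KD libraries and 0, 149 and 137 in control 1 to 3. Markers of heart muscle stood far above those of other cells as deposited. If the strand is swapped, these rows are a limited guide to the mRNA of the markers. The 15 listed cardiomyocyte genes summed to 6970 to 21273 CPM (reads per 1000000 of the normalized library size) in Acly_KD and 17092 to 20853 CPM in control. The 11 endothelial genes summed to 26.1 to 98.7 CPM in Acly_KD and 38.8 to 72.8 CPM in control. The 9 fibroblast genes summed to 16.9 to 31.7 CPM in Acly_KD and 12.9 to 30.8 CPM in control, and the 10 macrophage and leukocyte genes, with Ptprc and Adgre1 at 0, to 83.0 to 105 CPM in Acly_KD and 87.4 to 127 CPM in control.

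Because of the strand, each gene was read in 2 ways. Its own row was taken as deposited, and in the reading of mRNA the counts of the feature on the other strand were given to the gene. Fully 100% of the exons of Gm11175, an annotated antisense RNA (ENSMUSG00000080058, chromosome 8, 70699162 to 70700080, minus strand), lie in exons of Jund (ENSMUSG00000071076, chromosome 8, 70698949 to 70700616, plus strand). They share 877 bases, all of them protein-coding in Jund. Tmem189 (ENSMUSG00000090213, chromosome 2, 167642608 to 167689822, minus strand), a membrane protein gene, has a first exon of 312 bases inside the coding sequence of Cebpb (ENSMUSG00000056501, chromosome 2, 167688915 to 167690418, plus strand). That exon is 9.56% of the exonic bases of Tmem189. Junos (ENSMUSG00000087366, chromosome 4, 95051534 to 95167318, plus strand) shares 232 bases with Jun (ENSMUSG00000052684, chromosome 4, 95049034 to 95052222, minus strand), in the 5′ untranslated region of Jun. Spidr shares 562 bases with Cebpd (chromosome 16, 15887286 to 15891031), none of them coding. Prdx2 shares 173 bases with a noncoding transcript of Junb (chromosome 8, 84974484 to 84978718) that lies apart from its coding mRNA. It shares 177 bases with Rnaseh2a on the same side, so its counts were not given to Junb. Fos (chromosome 12, 85473890 to 85477273), Fosb (chromosome 7, 19302696 to 19310051), Atf3 (chromosome 1, 191170296 to 191218039) and Egr1 (chromosome 18, 34859823 to 34864984) have no exon opposite to theirs and could be read only at their own rows.

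**Figure D1:**
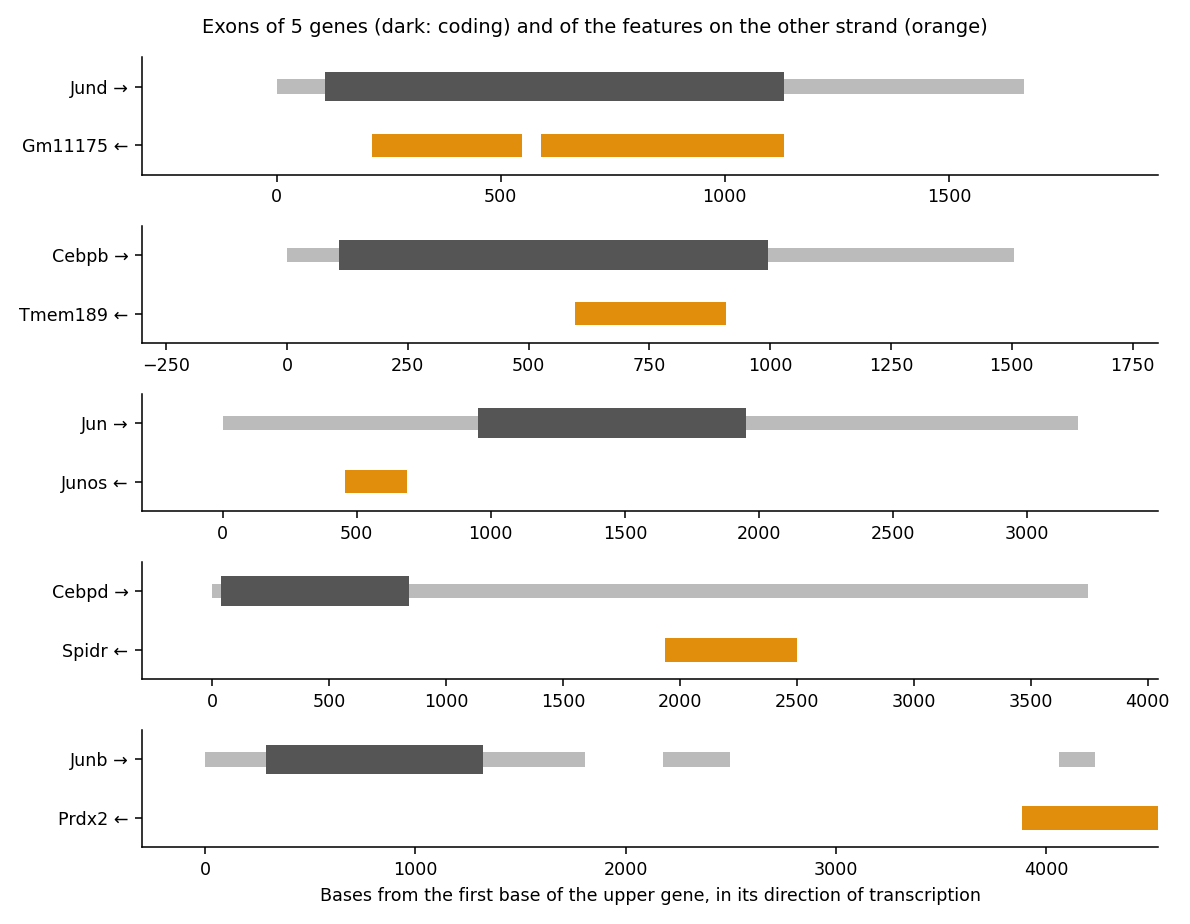
Exons of Jund, Cebpb, Jun, Cebpd and Junb (grey, coding part dark) and of the feature on the other strand (orange), in bases from the first base of each gene. Gm11175 lies in the coding part of Jund (877 bases) and the Tmem189 exon in that of Cebpb (312 bases); other exons of Tmem189, Junos, Spidr and Prdx2 fall outside the window.

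The stretches that carry the values of Jund and Cebpb are shown in part, from the GENCODE M21 transcripts on GRCm38, the assembly of mm10, plus strand, 150 bases each. Capitals mark bases that the gene shares with the feature on the other strand. In Jund (chr8:70699436-70699585) 42 unshared bases separate the 2 exons of Gm11175, and in Cebpb (chr2:167689481-167689630) the shared exon of Tmem189 begins after 30 unshared bases.
Jund: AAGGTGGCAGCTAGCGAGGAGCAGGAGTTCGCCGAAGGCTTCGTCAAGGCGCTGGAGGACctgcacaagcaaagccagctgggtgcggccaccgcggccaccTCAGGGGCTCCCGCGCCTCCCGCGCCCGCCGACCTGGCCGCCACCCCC
Cebpb: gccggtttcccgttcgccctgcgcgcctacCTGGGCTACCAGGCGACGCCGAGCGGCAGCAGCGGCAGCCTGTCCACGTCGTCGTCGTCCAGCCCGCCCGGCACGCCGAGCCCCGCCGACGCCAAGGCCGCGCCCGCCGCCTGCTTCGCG

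Upstream windows were at hand for 7 of the 9 genes (RefSeq, GRCm38.p6; Cebpd and Egr1 were not among them). They are shown for the 3 genes that could be followed in the reading of mRNA, as the 250 bases before the annotated start. Letters searched on both strands, in these bases and the next 50, were the AP-1 site TGACTCA, the full cyclic AMP site TGACGTCA, its core TGACG, the variant AP-1 site TGACATCA, the C/EBP letters TTGCNNAA and CCAAT. Capitals mark every match. The Jund window (chr8:70697489-70697738, plus strand) ends at the RefSeq start, 1210 bases before the start in GENCODE. The Cebpb window is chr2:167688665-167688914, plus strand, and the Jun window is chr4:95052223-95052472, minus strand.
Jund: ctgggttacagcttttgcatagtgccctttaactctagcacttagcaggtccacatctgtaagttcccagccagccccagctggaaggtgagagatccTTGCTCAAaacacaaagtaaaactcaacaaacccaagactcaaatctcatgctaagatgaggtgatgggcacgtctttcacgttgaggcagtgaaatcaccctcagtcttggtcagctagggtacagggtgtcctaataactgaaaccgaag
Cebpb: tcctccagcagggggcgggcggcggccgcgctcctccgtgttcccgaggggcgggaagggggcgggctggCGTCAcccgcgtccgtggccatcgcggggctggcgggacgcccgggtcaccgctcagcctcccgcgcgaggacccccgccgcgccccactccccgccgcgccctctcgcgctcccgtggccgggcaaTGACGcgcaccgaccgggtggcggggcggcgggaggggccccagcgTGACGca
Jun: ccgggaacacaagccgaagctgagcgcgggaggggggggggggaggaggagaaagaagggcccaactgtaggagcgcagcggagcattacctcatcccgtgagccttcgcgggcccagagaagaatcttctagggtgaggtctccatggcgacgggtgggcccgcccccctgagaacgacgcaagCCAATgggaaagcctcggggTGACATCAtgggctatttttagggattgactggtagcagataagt

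The variant AP-1 site of Jun stood at -45 to -38 from the start, and 3.62% of all 32851 windows hold these letters. The core letters TGACG, part of the full cyclic AMP site where that is present, occurred 3 times before Cebpb. They were found in 5 of the 7 windows (Cebpb, Fos, Fosb, Junb and Atf3), against 20.8% of all windows. The Atf3 window (chr1:191183334-191183583, minus strand) ends at a RefSeq start inside the GENCODE span of the gene, not before that span. The letters TTGCNNAA matched once, in Jund at -152 to -145 (10.8% of all windows). The box CCAAT, in 37.4% of all windows, was found in Jun at -65 to -61 and in Junb and Atf3. The site TGACTCA, held by 5.2% of all windows, and the full TGACGTCA, held by 1.79%, matched in none of the 7.

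Jund, which encodes the AP-1 subunit JunD, was lower in Acly_KD in the reading of mRNA. Its stretch held 301, 139 and 252 reads in Acly_KD 1 to 3 and 134, 565 and 467 reads in control 1 to 3. After normalization these were 841, 634 and 637 CPM in Acly_KD 1 to 3, against 953, 1312 and 1273 CPM in control 1 to 3. All 3 Acly_KD libraries lay below all 3 controls, and the smallest gap was between Acly_KD 1 and control 1. The means were 704 ± 119 CPM in Acly_KD and 1179 ± 197 CPM in control (SD, n = 3 each). On the log2 scale the fold change was -0.76 (SE 0.15). In bulk RNA, fewer cells that hold a transcript and less of it per cell cannot be told apart.

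Cebpb, which encodes C/EBP beta, was lower in Acly_KD by a similar amount but with another order of libraries. Reads opposite to it numbered 177, 94 and 309 in Acly_KD 1 to 3 and 137, 442 and 395 in control 1 to 3. They came to 494, 428 and 781 CPM in Acly_KD 1 to 3, against 975, 1026 and 1077 CPM in control 1 to 3. The groups did not overlap, and Acly_KD 3, the highest of its group for Cebpb, was among the low libraries for Jund. The spread was uneven, with a coefficient of variation of 33.0% in Acly_KD and 4.98% in control. The means were 568 ± 187 CPM in Acly_KD and 1026 ± 51.1 CPM in control (SD, n = 3 each). On the log2 scale the fold change was -0.84 (SE 0.18). Most exonic bases of Tmem189 lie outside Cebpb, and counts from the rest of Tmem189 cannot be separated from those of the shared exon.

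Jun, the founding AP-1 subunit, did not share this direction. Through Junos it had 121, 33 and 85 reads in Acly_KD 1 to 3 and 25, 71 and 54 reads in control 1 to 3. On the normalized scale these were 338, 150 and 215 CPM in Acly_KD 1 to 3, against 178, 165 and 147 CPM in control 1 to 3. The groups overlapped, since Acly_KD 2 lay between control 2 and control 3, while Acly_KD 1 and 3 lay above all controls. The log2 fold change was 0.56 with a 95% interval of 0.01 to 1.11, and without Acly_KD 1 it was 0.21. Junos shares 5.64% of its exonic bases with Jun, so its counts may come from other parts of Junos.

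Cebpd, which encodes C/EBP delta, was close to the limit of detection. Spidr, the feature opposite, held 11, 1 and 5 reads in Acly_KD 1 to 3 and 3, 12 and 4 reads in control 1 to 3, or 4.56 to 30.7 CPM in Acly_KD and 10.9 to 27.9 CPM in control. The groups overlapped, and the gene did not pass the filter on low counts.

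**Figure D2:**
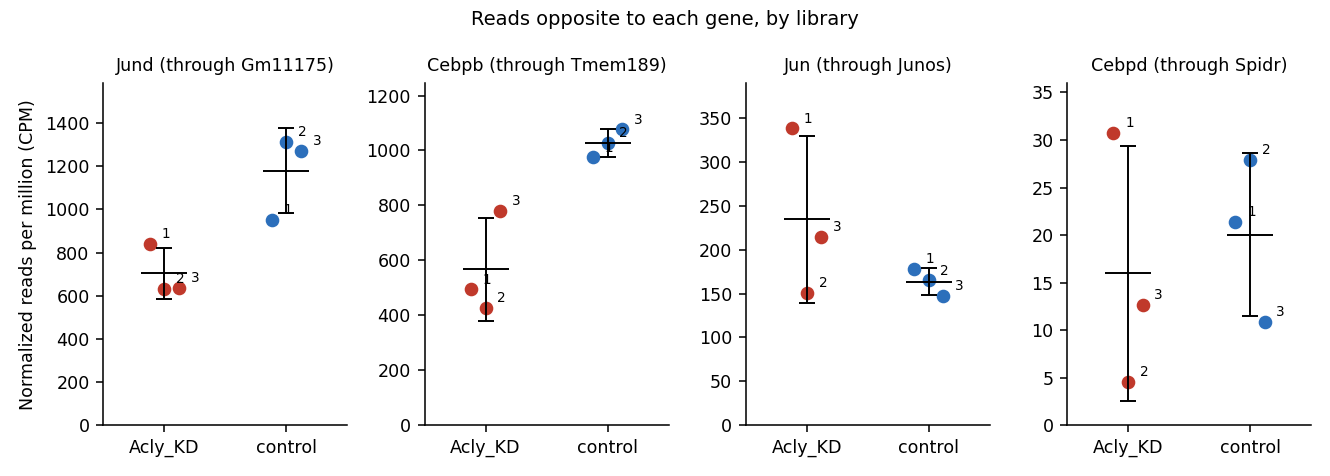
Normalized CPM of reads opposite to Jund, Cebpb, Jun and Cebpd in each library (numbered points), Acly_KD left of control, with the mean and SD of 3 libraries (bars). Acly_KD libraries lie below all controls for Jund (634 to 841 CPM) and Cebpb (428 to 781 CPM) and overlap them for Jun and Cebpd.

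Of the 9 genes, 4 had a value in the reading of mRNA and 3 passed the filter. Jund and Cebpb passed the threshold of an adjusted p under 0.05 in edgeR, where 0.206% of all 1453 genes tested were lower past it and 0.206% higher. The groups did not overlap for these 2 genes, and 6.61% of all genes tested lay lower in this way and 8.12% higher. Since this contrast chose the genes, nothing is read from these counts.

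The 2 calls depended on which libraries and settings were used. The log2 fold change of Jund ran from -0.91 to -0.67 with single libraries left out. It stayed past the threshold without Acly_KD 1 (-0.91) or control 1 (-0.87) and lost it without Acly_KD 2 (-0.69), Acly_KD 3 (-0.68), control 2 (-0.67) or control 3 (-0.69). For Cebpb it ran from -1.15 to -0.69 and, of these 6 fits, was past the threshold only without Acly_KD 3 (-1.15). With a term for control 2 and control 3, the libraries with reads opposite to Xist, it was -0.43 (SE 0.21) for Jund and -0.76 for Cebpb, and neither passed. Control 1, the only control without such reads, was also the lowest control for both genes. For Jund the highest Acly_KD library had 841 CPM and control 1 had 953 CPM, and for Cebpb the highest Acly_KD library had 781 CPM and control 1 had 975 CPM. The part of sex or of another difference marked by these reads was not tested further, as it rests on 1 control library.

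**Figure D3:**
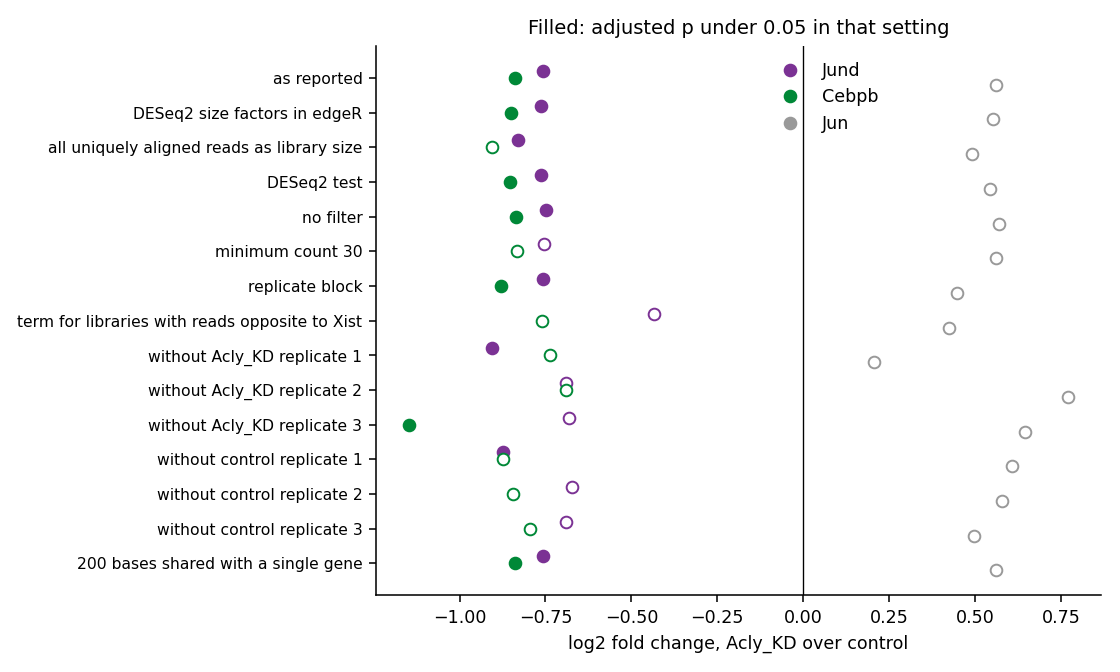
Log2 fold change of Jund, Cebpb and Jun (Acly_KD over control) in the reading of mRNA, as reported and under each of 14 alternatives. Filled points have an adjusted p under 0.05 in that setting, which held for Jund in 8 and for Cebpb in 6 of the 14, and for Jun in 0.

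Read as deposited, the features on the other strand carry the same counts at another scale. Gm11175 read 462, 339 and 315 CPM in Acly_KD 1 to 3, against 488, 668 and 672 CPM in control 1 to 3, a log2 fold change of -0.72 (SE 0.19). Tmem189 read 272, 230 and 386 CPM in Acly_KD 1 to 3, against 499, 523 and 568 CPM in control 1 to 3, a log2 fold change of -0.83 (SE 0.19). Both lay lower in Acly_KD with no overlap, as 5.56% of the 2952 features tested did. The row of Prdx2 lay higher with no overlap, as 5.83% did, on 11, 10 and 23 reads in Acly_KD 1 to 3 and 0, 14 and 11 reads in control 1 to 3. In the reading of mRNA, through Rnaseh2a, Prdx2 went the other way. There it had 2087 ± 249 CPM in Acly_KD and 2474 ± 77.5 CPM in control (SD, n = 3 each), lower with no overlap, as 6.61% of genes were. Its log2 fold change there was -0.24 (SE 0.12). As deposited, none of these features passed the threshold, though Tmem189 did in 1 of the 14 alternatives. Of all features tested, 0% passed in either direction by edgeR and 0 by DESeq2, while 180 had an unadjusted p under 0.05 in edgeR.

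The genes' own rows, which hold reads of the strand opposite to their mRNA if the strand is swapped, were low. Jund had 12, 17 and 45 reads in Acly_KD 1 to 3 and 14, 37 and 34 reads in control 1 to 3. Summed over libraries, Gm11175 had 11.7 times the reads of the Jund row, Tmem189 had 19.4 times those of Cebpb and Junos 18.5 times those of Jun. For Spidr and Cebpd the factor was 1.33. Reads in the Jund row per 100 reads of Gm11175 were 3.99, 12.2 and 17.9 in Acly_KD 1 to 3 and 10.4, 6.55 and 7.28 in control 1 to 3. This share was lowest in Acly_KD 1 and highest in Acly_KD 3, so the row of Jund did not follow its partner across the Acly_KD libraries. The share for Cebpb had the same order there, at 3.39, 5.32 and 5.83 in Acly_KD 1 to 3, and that for Jun did not (4.13, 6.06 and 3.53). The 15 cardiomyocyte genes as deposited also summed to 6970, 13498 and 21273 CPM in Acly_KD 1 to 3. Low own rows in Acly_KD 1 were thus not particular to Jund. The log2 fold change of the Jund row was -0.29 (SE 0.41), and without Acly_KD 1 it was 0.07, of the other sign.

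The Cebpb row held 6, 5 and 18 reads in Acly_KD 1 to 3 and 12, 27 and 12 reads in control 1 to 3. On the normalized scale it read 9.21 to 22.5 CPM in Acly_KD and 17.3 to 43.7 CPM in control, with groups that overlapped and a log2 fold change of -0.96 (95% interval -2.09 to 0.16). Atf3, a repressor and activator induced by stress, held 7, 15 and 5 reads in Acly_KD 1 to 3 and 11, 34 and 20 reads in control 1 to 3. It read 10.7, 36.6 and 6.25 CPM in Acly_KD 1 to 3, against 40.1, 40.2 and 28.8 CPM in control 1 to 3. Acly_KD 2 fell among the controls for Atf3 while the other Acly_KD libraries lay below them. The log2 fold change was -1.15 (95% interval -2.36 to 0.06), and without Acly_KD 2 it was -2.07. No exon lies opposite to Atf3, so it has no value in the reading of mRNA, and if the strand is swapped its row is a limited guide to its mRNA.

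The remaining rows held almost no reads. Egr1 had 12, 0 and 1 reads in Acly_KD 1 to 3 and 1, 5 and 2 reads in control 1 to 3. Of its 13 Acly_KD reads, 12 were in Acly_KD 1. Junb had 8 reads in Acly_KD and 6 in control, Jun had 10 in Acly_KD and 11 in control, and Cebpd had 16 in Acly_KD and 11 in control. Fosb had 1 read in each group. Fos, the partner of Jun in AP-1, had 0 reads in Acly_KD, which allows up to 3 reads or 1.61 CPM over the group, and 2 reads in control, all in control 2. These 6 rows did not pass the filter on low counts, and they do not show whether their mRNA was present.

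**Figure D4:**
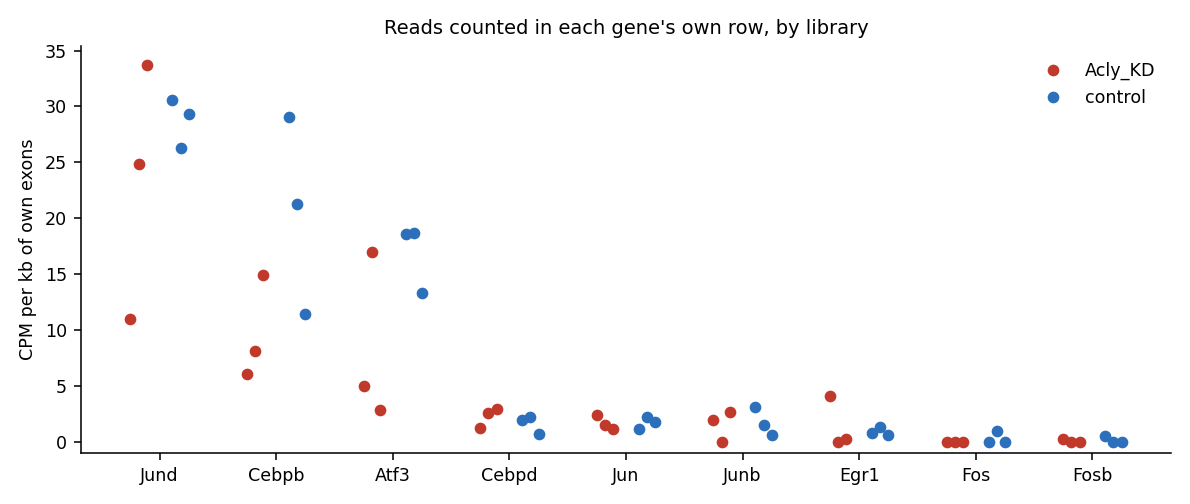
Reads counted in each gene's own row as CPM per kilobase of its exons, by library, Acly_KD left of control for each gene. Jund, Cebpb and Atf3 reach 18.7 to 33.7 CPM per kb in their highest library, and the other 6 genes stay at or below 4.11.

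Levels were compared between genes per kilobase. Per kilobase of shared exon, and if all reads of the feature opposite came from it, Cebpb had the highest level in the reading of mRNA. It reached 1820 ± 601 CPM per kb in Acly_KD and 3288 ± 164 CPM per kb in control. Jund followed with 802 ± 135 CPM per kb in Acly_KD and 1345 ± 224 CPM per kb in control. Jun read 1010 ± 411 CPM per kb in Acly_KD and 704 ± 66.3 CPM per kb in control (SD, n = 3 each). Cebpd was lowest, with 28.4 ± 23.8 CPM per kb in Acly_KD and 35.7 ± 15.2 CPM per kb in control. Jund and Jun did not differ beyond their spread in Acly_KD, while in control every Jund library lay above every Jun library. Reads that reach past a short exon raise its value per kilobase, more so for the 232 bases of Jun and the 312 of Cebpb than for the 877 of Jund. Among the own rows the order was Jund, Cebpb, Atf3, Cebpd, Jun, Junb, Egr1, Fos and Fosb, and the ranges of neighbours overlapped throughout.

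The genes with the most similar profile over the 6 libraries were looked up among the other 885 genes with at least 100 CPM in the reading of mRNA, by Pearson's r of log2(CPM + 1). For Jund they were Rbm38 (r = 0.98), Csnk1e (r = 0.95) and Corin (r = 0.93), with log2 fold changes of -0.20, -0.17 and -0.40. For Cebpb they were Srsf1 (r = 0.96), Atp5j (r = 0.96) and Mettl9 (r = 0.96), at -0.86, -0.68 and -0.50. For Jun they were Rab5a (r = 0.97), Ednra (r = 0.97) and Nubp1 (r = 0.95), at 0.39, 0.33 and 0.27. The 3 lists did not share a gene. The libraries fall into 2 groups and share their scaling between genes, and with 6 points such values describe likeness only.

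Other genes of the pathway were followed in lists, in both readings. Among the other AP-1 zipper genes (such as Maf, Bach, Batf, Fosl, Atf and Nfe2l1 genes), 3 of 21 were tested in the reading of mRNA. Of these 0 passed in either direction, with a median log2 fold change of 0.35 beside 0.01 for all genes tested. Mafk, a small Maf protein that pairs with other zipper proteins, was read through 169 bases shared with Tmem184a. It had 186 ± 52.5 CPM in Acly_KD and 318 ± 4.37 CPM in control (SD, n = 3 each), and no library of one group fell among the other. The log2 fold change of Mafk was -0.81 (SE 0.22), short of the threshold (adjusted p = 0.114 in edgeR). Maf and Bach2 had log2 fold changes of 0.35 and 0.41, with intervals that spanned 0. As deposited, 4 of the 21 were tested and 0 passed, with a median of -0.18 beside -0.04 for all features. The row with the most reads, Batf2, had a log2 fold change of 0.10 (95% interval -0.37 to 0.56). It shares 51 bases with Arl2 on the other strand, so its reads may be those of Arl2. Of the 5 genes listed as other C/EBP genes, 0 were read as mRNA. As deposited, Cebpz (0.04) and Ddit3 (-0.26), a C/EBP relative induced by stress, were tested and 0 passed. Cebpz was listed by its symbol and is not a zipper protein. Cebpz shares 171 bases with Cebpzos on the other strand, and Ddit3 shares 68 with Mars. If the strand is swapped, these rows may hold reads of those genes.

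Immediate early genes outside the family were mostly too sparse to follow, with 3 of 48 tested in the reading of mRNA and 0 past the threshold, at a median log2 fold change of -0.41. The values of 2 of these 3 were below 0, as were 49.5% of all genes tested. Ccn2, a matricellular growth factor, read 3106 ± 1013 CPM in Acly_KD and 4103 ± 1355 CPM in control through Gm15270, with groups that overlapped (log2 fold change -0.41, 95% interval -1.48 to 0.65). Its own row as deposited gave -1.09 on the log2 scale (SE 0.33), with an adjusted p of 0.549 in edgeR. Zfp36l1, which speeds the decay of short-lived mRNA, had a log2 fold change of 0.02 (95% interval -0.53 to 0.58). As deposited, 5 of 48 were tested, 0 passed, and 5 of the 5 had values below 0, as 54.4% of all features did.

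Genes that act on these factors or are reported as their targets gave 2 calls in the reading of mRNA, both higher, where 0.206% of all 1453 genes tested were called higher. Neither call held without control 1, 2 or 3, with the term for reads opposite to Xist, at a minimum count of 30 or when scaled to uniquely aligned reads, since 0 genes were called higher in each of these by edgeR. Mrtfb, a coactivator of serum response factor, which drives Fos and Egr1, rose by 2.00 on the log2 scale (SE 0.44; edgeR, adjusted p = 0.0422), on 142 reads in all, counted in Gm15738. It was 1 of 2 tested among 44 upstream genes. The other, Nab2, a corepressor of EGR proteins, stood at -0.51 on the log2 scale (SE 0.21; edgeR, adjusted p = 0.425). Ccnd1, the cyclin D1 gene and a reported AP-1 target, rose by 0.80 on the log2 scale (SE 0.17; edgeR, adjusted p = 0.0366). It was read through LTO1 and was 1 of 2 tested among 34 reported targets. The other was Nppa, with 7026 ± 4454 CPM in Acly_KD and 4744 ± 2988 CPM in control (SD, n = 3 each). As deposited, 5 of the 44 and 7 of the 34 were tested and 0 passed, with medians of -0.51 and -0.44.

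Heat shock genes respond, like the AP-1 genes, to the isolation of cells. Hspa1a read 45.8 ± 23.7 CPM in Acly_KD and 100 ± 35.8 CPM in control through Gm20481, and the groups stood apart. Its log2 fold change of -1.19 (SE 0.41) did not pass the threshold (edgeR, adjusted p = 0.285), and it is also 1 of the 3 immediate early genes tested. It has a near-identical copy, Hspa1b, with which reads may be shared. The other one tested, Hspd1, had a log2 fold change of -0.13 (95% interval -1.21 to 0.95), and 2 of 12 such genes were tested in the reading of mRNA. As deposited 8 of 12 were tested, 0 passed, and their median was -0.09. In the reading of mRNA 5 of 15 cardiomyocyte markers were tested and 0 passed, with 3 above 0 and 2 below 0 and a median log2 fold change of 0.03. They summed to 93005 to 102221 CPM in Acly_KD and 100734 to 127371 CPM in control. The groups did not overlap for Myh7 (-1.36) and Ckm (-0.20), which were lower, or for Ttn (0.58), which was higher. They overlapped for Atp2a2 (0.03) and Myl2 (0.11). Over all genes tested, 14.7% had groups without overlap in either direction. No endothelial, fibroblast or leukocyte marker could be read as mRNA. As deposited, 15 of 15 cardiomyocyte markers had values below 0, as 54.4% of all features did, with a median of -0.43, and 0 passed. The 6 atrial muscle markers, with Sln and Bmp10 at 0, summed to 36.8 to 63.5 CPM in Acly_KD and 70.5 to 80.1 CPM in control as deposited. The 2 of them that could be read as mRNA, Nppa and Kcnj3, summed to 4659 to 13086 CPM in Acly_KD and 3842 to 9701 CPM in control, with groups that overlapped. Most of this sum was Nppa. Kcnj3 alone was lower without overlap, with 1091 ± 48.2 CPM in Acly_KD and 1434 ± 148 CPM in control (log2 fold change -0.40, SE 0.13). As deposited, the 9 markers of pericytes and smooth muscle summed to 56.8 to 182 CPM in Acly_KD and 124 to 135 CPM in control. The part of the isolation or of the mix of cells in the values of Jund and Cebpb was not tested.

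**Figure D5:**
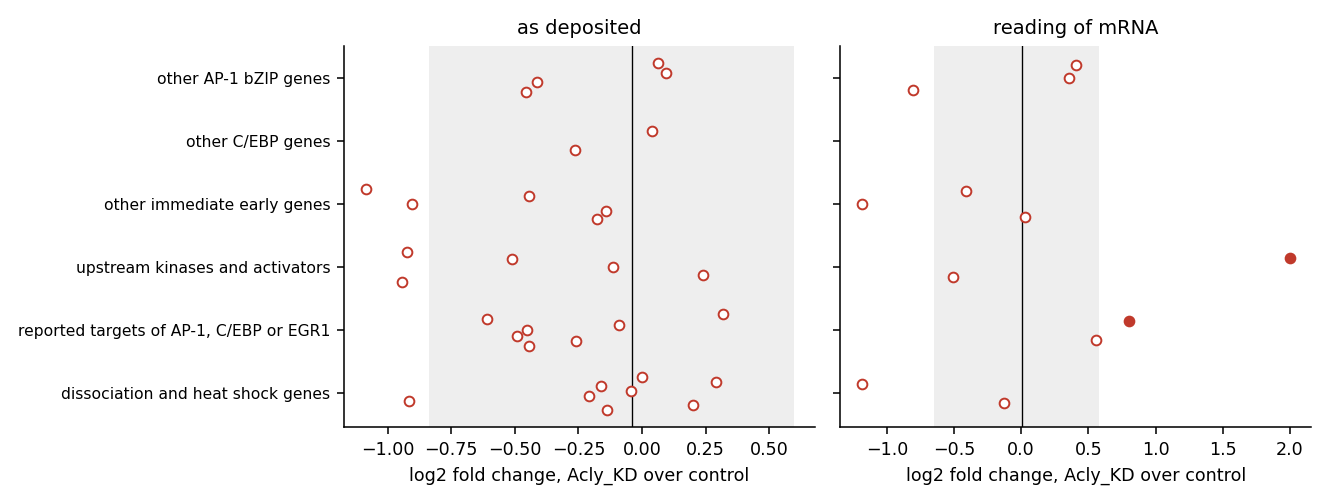
Log2 fold change (Acly_KD over control) of each listed gene tested, as deposited (left) and in the reading of mRNA (right), without the lists of cell type markers. The line is the median and the grey band the central 90% of all features tested; filled points passed the threshold (Mrtfb at 2.00 and Ccnd1 at 0.80).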

How the data were processed

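RNA of 6 libraries, 3 Acly_KD and 3 control, was sequenced from poly-A RNA. Per the labels' protocols the kit was a stranded one. The deposited values are raw read counts per gene made by the authors from mm10 alignments; FastQC, TopHat2, SAMtools, HTSeq and DESeq2 are named in the submitters' processing notes, and no source used here gives the strand setting used in counting. Rows that name no gene took 97.4% to 97.7% of entries and were left out. Libraries of one group differed by a chi-square of 3.43 to 10.1 per degree of freedom, so none was a repeat.

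Of the 46078 features 45143 matched GENCODE M21, which may differ from the authors' gene models. In the reading of mRNA a feature's counts went to the gene across from it that took 80% or more of its overlap with exons of the other strand, and 50 or more bases, provided that this gene had fewer counts of its own or none; this gave 2973 genes and 140295 to 445228 reads per library. Both readings were fitted over all features with edgeR 4.0.16 in R 4.3.3 (TMM, filterByExpr at a minimum count of 10, robust quasi-likelihood test, Benjamini-Hochberg adjustment, threshold 0.05). The step was also run on simulated counts. These held no effect of sex or of single libraries, so that run does not bear on the calls given here. CPM use TMM-normalized library sizes, fold changes are Acly_KD over control, and SE is the log2 fold change over the root of the F statistic. Floors of 3 counts cover counting error only.

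Members, lists, tests and alternatives were chosen with earlier results of these data known. Named are the 9 genes, the features opposite, Acly and the 3 genes most alike. From each list up to 4 genes past the threshold are named, or else the 2 with most reads. Hspa1a, Nab2, Maf, Bach2, Myh7, Ttn and Myl2 are named as the few listed genes tested. Rnaseh2a, Arl2, Cebpzos and Mars are named for their overlap. Alternatives were DESeq2 1.42.0, its size factors, all uniquely aligned reads as library size, other filters, a replicate block, a term for reads opposite to Xist, a stricter rule of 200 shared bases, features with opposite exons alone, and each library left out.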

Additional observations from a re-analysis of the deposited data

How the results depend on the processing

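Jund and Cebpb stayed below 0 and Jun above 0 under all 14 alternatives in the reading of mRNA, a direction that groups without overlap fix for Jund and Cebpb with single libraries left out. For Jund the term for libraries with reads opposite to Xist moved the log2 fold change to -0.43. With single libraries left out Jund ran from -0.91 to -0.67, Cebpb from -1.15 to -0.69 and Jun from 0.21 to 0.77. The row of Jund as deposited ran from -0.68 without Acly_KD replicate 3 to 0.074 without Acly_KD replicate 1, where its sign changed.

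Counts over all genes moved more. In the reading of mRNA, 3 higher and 3 lower became 0 and 2 when scaled to uniquely aligned reads (146 at an unadjusted p under 0.05 by edgeR), 1 and 3 with the DESeq2 test, 12 and 18 with no filter, 0 and 0 with a minimum count of 30 (98 at an unadjusted p under 0.05 by edgeR), 0 and 0 with the term for reads opposite to Xist (96 at an unadjusted p under 0.05 by edgeR), and 1 and 3 with the rule of 200 shared bases. Leaving out single libraries gave 0 to 8 higher and 1 to 12 lower, the most without Acly_KD replicate 3. As deposited, 0 and 0 became 2 higher and 1 lower with no filter, and 0 to 23 higher and 0 to 46 lower with single libraries left out, again the most without Acly_KD replicate 3. A replicate block gave 5 higher and 7 lower in the reading of mRNA and 0 and 0 as deposited. Same-numbered libraries did not deviate together (correlations of -0.18 to -0.02 as deposited and -0.05 to -0.01 in the reading of mRNA). Such weak values cannot show whether libraries of one number were prepared together. The block changed neither call of Jund or Cebpb. The causes were not tested. The own rows of Jun, Junb, Fos, Fosb, Cebpd and Egr1 held 0 to 12 reads per library, and no difference could be tested there.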
